A study of Mus musculus with 5 samples.

Results

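The 10 genes described here control the passage of a cell through G1: the inhibitors Cdkn1b, Cdkn2c and Cdkn2d, the kinases Cdk2, Cdk4 and Cdk6, the D-type cyclins Ccnd1, Ccnd2 and Ccnd3, and Rb1. They were taken by symbol from a table of 24046 genes measured by bulk RNA sequencing in mouse hematopoietic stem cells (HSCs) sorted from the marrow. All 10 were present in the table, and all 10 were among the 13661 genes with enough reads to be tested.

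Whole marrow of Syncrip flox/flox mice was transplanted into lethally irradiated, female CD45.1 congenic recipients, young adults like the donors, and left to engraft. Syncrip encodes an RNA-binding protein. Both groups carried its floxed alleles, and both received polyinosinic:polycytidylic acid (pIpC), an inducer of interferon, 6 weeks after transplantation. The WT group lacked the Mx1 Cre transgene (n = 3, WT 1, WT 2 and WT 3), and the KO group carried it (n = 2, KO 2 and KO 3). The Mx1 promoter responds to interferon and is not restricted to HSCs, so that Cre could act in any donor cell that responded to interferon. Sorting took place 3 weeks after pIpC, which was 9 weeks after transplantation, and kept donor-derived CD45.2+, Lin-, Sca1+, cKit+, CD150+, CD48- cells. Per the methods, donor marrow came from both sexes. The labels do not say whether libraries came from separate mice or from pools, so p-values measure only the spread between these samples, which may be technical.

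As background, a cell that leaves quiescence first makes D-type cyclins, which switch on CDK4 and CDK6. These kinases, and after them CDK2 with cyclin E, phosphorylate RB1, which then lets go of the E2F factors that drive genes for DNA replication. The INK4 inhibitors bind CDK4 and CDK6, and the CIP/KIP inhibitors bind CDK2 complexes. Most adult HSCs are quiescent, and this pathway is known as one of the controls of that state.

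The upstream sequence of 2 of the kinases is shown here, because these windows held motifs known from cell cycle promoters. RefSeq windows (GRCm38.p6) were matched by symbol for 7 of the 10 genes, and not for Ccnd1, Ccnd2 and Rb1. In the 250 bases before each start site, 2 motifs were searched on both strands: the E2F type (TTTCCCGC, TTTGGCGC, TTTCGCGC or TTTGCCGC) and the E-box CACGTG, the site known for MYC and its relatives, which reads the same on both strands. The E-box was added after the Cdk4 sequence had been seen. The motifs share no bases with each other in the windows printed, where capitals mark them. The Cdk2 window is chr10:128705052-128705301 on the minus strand, and the Cdk4 window is chr10:127063285-127063534 on the plus strand, each written 5′ to 3′ along its gene.
Cdk2: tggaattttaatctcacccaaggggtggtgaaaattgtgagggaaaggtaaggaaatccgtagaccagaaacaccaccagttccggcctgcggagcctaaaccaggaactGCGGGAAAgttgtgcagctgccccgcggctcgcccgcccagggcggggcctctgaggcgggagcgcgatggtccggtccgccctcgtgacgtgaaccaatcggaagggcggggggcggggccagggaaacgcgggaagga
Cdk4: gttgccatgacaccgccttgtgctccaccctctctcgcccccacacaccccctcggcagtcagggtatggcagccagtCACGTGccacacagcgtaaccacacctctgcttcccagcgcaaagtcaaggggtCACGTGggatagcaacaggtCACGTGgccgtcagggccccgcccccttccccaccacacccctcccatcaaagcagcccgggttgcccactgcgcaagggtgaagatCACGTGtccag

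The Cdk2 window held 1 E2F-type match, GCGGGAAA, which is TTTCCCGC read on the other strand and begins 140 bases before the start site. Such a match was found in 1.86% of all 32851 windows of this length, and no other window of these genes had one. The Cdk4 window held 4 E-boxes, and 7 of the 32851 windows (0.021%) held that many. The Cdk6 window held 1 E-box, and at least 1 was found in 6.02% of all windows. With the bases just after the start site included (300 in all), GC content was 64.7% for Cdk2 and 67.0% for Cdk4. The median over all windows was 52.7%, and the shares above were not matched for GC content. A match is a run of letters, and no binding was measured here.

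The libraries were checked before the members were compared. Depth was 18308876 reads in KO 2 and 12539599 in KO 3, both under the 21748781 to 22779536 reads of the WT libraries. Syncrip, the deleted gene, gave normalized counts of 1440 to 1944 in WT and of 294 and 343 in KO (limma log2 fold change -2.43 ± 0.22 SE, adjusted p = 0.0352). Syncrip no longer passed once a linear trend on transcript length and GC content was taken out of each library (-1.53, adjusted p = 0.138), by voom (adjusted p = 0.0826), with array weights (adjusted p = 0.0594), with every gene above 0 tested (adjusted p = 0.0503), and without any 1 of the WT libraries (adjusted p = 0.164 to 0.21). All 10 markers of HSCs were detected in every library, at 0.0581% to 0.0967% of reads in WT, 0.0674% in KO 2 and 0.111% in KO 3. Neutrophil and myeloid markers took 5.82% to 6.95% of reads in WT, 5.19% in KO 2 and 2.52% in KO 3. Cd48, which the gate excludes, stood at 696.0, 600.6 and 767.8 normalized reads in WT, 459.5 in KO 2 and 191.4 in KO 3. The 10 adipocyte markers summed to 24471 normalized reads in KO 2, with Ucp1 at 5622 there and at 0 in the other 4 libraries, against 71.4 to 555.4 elsewhere. In these bulk samples, fewer cells of a type and less RNA per cell cannot be told apart. Megakaryocyte markers took 0.0333% to 0.0575% of reads in WT, 0.0636% in KO 2 and 0.145% in KO 3, and erythroid markers took 0.167% to 0.237% in WT, 0.174% in KO 2 and 0.110% in KO 3. Stroma, B cell and T cell markers reached at most 0.0154%, 0.00402% and 0.00187% of any library. The part of these differences in the results was not tested.

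Across the 10 members, limma called none changed at an adjusted p under 0.05, where it called 1 of 13661 genes, Syncrip (0.00732%). edgeR called none of the 10 on the recovered reads and 2 genes in all (0.0146%). DESeq2 called 2 of the 10, Ccnd1 higher and Rb1 lower in KO, with 2279 of 12170 genes called (18.7%). At an unadjusted limma p under 0.05 there were 3 of the 10, Ccnd1, Ccnd2 and Rb1, beside 27.8% of all genes tested (13.3% higher and 14.5% lower in KO). After each library was freed of a linear trend on length and GC content, limma put 5 of the 10 under 0.05 unadjusted, Cdkn1b, Ccnd1 and Ccnd2 higher and Cdkn2d and Rb1 lower, beside 8.12% of all genes higher and 9.19% lower. None of the 10 was called after adjustment there either. Both KO values lay above all WT values for 4 members, Cdkn1b, Cdk4, Ccnd1 and Ccnd3, beside 23.9% of all genes. Both lay below for 1 member, Rb1, beside 23.2% of all genes. The median log2 fold change of the members was 0.23, with 7 above 0 and 3 below, and that of all genes was 0.02. With the same trend removed, the members' median was -0.06 and that of all genes -0.01. The plot of values by library shows the same groups, with Ccnd1 and Rb1 as the pair whose KO values lie farthest from WT.

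**Figure D1:**
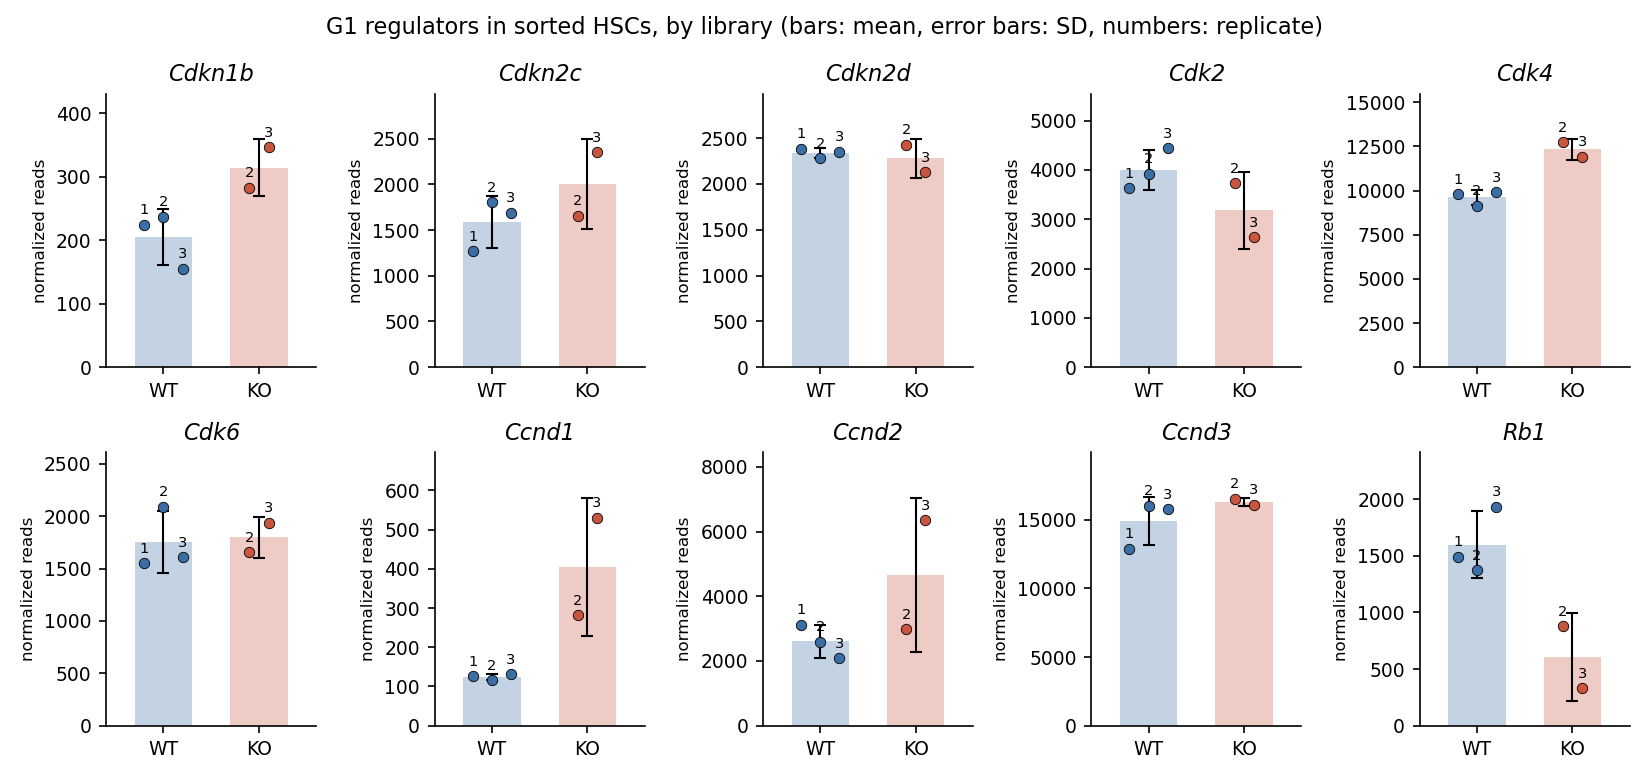
Normalized read counts of the 10 G1 regulators (vertical axes, each from 0) in 3 WT and 2 KO libraries; bars are group means, error bars SD, and the numbers beside the points are replicate numbers. Ccnd1 stands at 281.7 and 530.0 in KO over 115.4 to 132.0 in WT, and Rb1 at 881 and 333 in KO under 1375 to 1934 in WT.

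Among the inhibitors, Cdkn1b encodes p27, a CIP/KIP inhibitor of CDK2 that is known for holding cells in quiescence. It lies at chr6:134920401-134925513 on the plus strand (GRCm38, GENCODE M21), and its normalized read count was 224.8, 236.9 and 155.1 in WT 1, WT 2 and WT 3 and 282.7 and 346.3 in KO 2 and KO 3. Both KO libraries were above every WT library, and WT 3 was the lowest. Relative to the mean of WT on the log2 scale, Cdkn1b stood at 0.15, 0.23 and -0.38 in WT and at 0.48 and 0.77 in KO. The median of the HSC markers, likewise lowest in WT 3 and highest in KO 3, stood at 0.75, 0.05 and -0.64 in WT and at 0.14 and 1.07 in KO, and the part of the markers in Cdkn1b was not tested. The mean was 205.6 ± 44.2 (SD, n = 3) in WT and 314.5 ± 45.0 (SD, n = 2) in KO, and the difference on the log2(value + 1) scale was 0.63 (SE 0.32, limma adjusted p = 0.230), which did not pass the test. This gene rested on few reads, from 181 in WT 3 to 275 in KO 2. Its transcript has 43.1% GC, and with a linear trend on length and GC content taken out of each library the limma log2 fold change was 1.11 ± 0.33 SE (adjusted p = 0.196).

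Cdkn2c encodes p18, an INK4 inhibitor of CDK4 and CDK6. It lies at chr4:109660876-109667189 on the minus strand and gave normalized counts of 1269, 1806 and 1689 in WT and of 1659 and 2352 in KO. The groups overlapped, with KO 2 between WT 1 and WT 3 and KO 3 above all. The log2 fold change was 0.33 (95% interval -0.20 to 0.87, limma adjusted p = 0.379), and it was -0.25 once the length and GC trend was removed, so that its direction depended on that step. It was 0.08 without KO 3, 0.58 without KO 2 and 0.18 without WT 1. Cdkn2d encodes p19 of the same INK4 family and lies at chr9:21288410-21291407 on the minus strand. Its normalized read counts were 2385, 2278 and 2352 in WT and 2426 and 2129 in KO. This was the narrowest WT spread of the members (SD 0.03 on the log2 scale), and the 2 KO values lay on either side of it. The log2 fold change was -0.04 (95% interval -0.42 to 0.34, limma adjusted p = 0.890), and it was 0.05 with KO 3 left out. Removal of the length and GC trend moved it most, to -0.44 (95% interval -0.80 to -0.08, limma adjusted p = 0.228).

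Among the kinases, Cdk4 and Cdk6 are the partners of the D-type cyclins. Cdk4 lies at chr10:127063534-127067920 on the plus strand, and its normalized read count was 9805, 9145 and 9901 in WT and 12741 and 11910 in KO. Both KO libraries exceeded every WT library, and the replicates of each group lay close together. The mean was 9617 ± 412 (SD, n = 3) in WT and 12326 ± 588 (SD, n = 2) in KO, or 128% of the WT level (limma log2 fold change 0.36 ± 0.16 SE, adjusted p = 0.186). DESeq2 gave the same fold change (adjusted p = 0.0964), and limma gave 0.12 once the trend was removed. On the opposite strand, Tspan31 shares 19.7% of the Cdk4 exon bases, and whether the counting used strand is not stated. Tspan31 itself had a log2 fold change of -0.02.

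Cdk6 spans chr5:3341485-3531008 on the plus strand and gave normalized counts of 1553, 2090 and 1608 in WT and of 1656 and 1938 in KO. Both KO values lay within the WT range, and the log2 fold change was 0.05 (95% interval -0.42 to 0.51, limma adjusted p = 0.896). Its sign was negative in 4 of the 17 alternatives, those without WT 1, WT 3 or KO 3 and the one with the replicate number as a block. WT 1 is alone in its block, so that the block gave the same fold changes as leaving out WT 1. The highest value was 0.34, with the length and GC trend removed. Cdk2, the partner of cyclins E and A, lies at chr10:128697939-128705031 on the minus strand. Its normalized read counts were 3633, 3926 and 4440 in WT and 3725 and 2632 in KO. KO 2 lay within the WT range and KO 3 below it, and the log2 fold change was -0.35 (95% interval -0.81 to 0.11, limma adjusted p = 0.289). It was -0.10 without KO 3 and -0.60 without KO 2.

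Among the cyclins, Ccnd1 encodes cyclin D1 and lies at chr7:144929931-144939925 on the minus strand. Its normalized read count was 126.5, 115.4 and 132.0 in WT 1, WT 2 and WT 3 and 281.7 and 530.0 in KO 2 and KO 3. The WT libraries were nearly level, and both KO libraries were above all of them, with KO 3 the highest. The mean was 124.6 ± 8.43 (SD, n = 3) in WT and 405.8 ± 176 (SD, n = 2) in KO, a ratio of 3.26. The log2 fold change of 1.63 (SE 0.36, 95% interval 0.81 to 2.45) had an unadjusted limma p of 0.00164 and an adjusted p of 0.0815, short of the threshold. By DESeq2 it was 1.70 (SE 0.39, adjusted p = 0.000825), and by edgeR 1.68 with an adjusted p of 0.0926. Without KO 2, limma gave 2.08 with an adjusted p of 0.0126, where KO 3 was assumed to vary like the WT libraries. Across all 17 alternatives the log2 fold change stayed between 1.17 and 2.08, and 1.17 was the value without KO 3.

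The reads behind Ccnd1 were few, 133 to 154 in WT, 274 in KO 2 and 349 in KO 3. Their 95% Poisson intervals, which cover counting error only, ran up to 180 in WT and from 243 in KO 2. An antisense neighbour, Oraov1, shares 1100 bases, or 23.4% of the Ccnd1 exon bases. Oraov1 gave normalized counts of 290.5, 387.9 and 299.9 in WT and of 363.9 and 226.3 in KO (log2 fold change -0.17). KO 2 lay within the WT range there and KO 3 below it, and how reads in the shared bases were assigned was not tested.

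Ccnd2 encodes cyclin D2 and lies at chr6:127125162-127152193 on the minus strand. Its normalized read count was 3123, 2601 and 2087 in WT and 2982 and 6353 in KO. KO 2 lay under WT 1, and KO 3 alone stood above the WT libraries. The limma log2 fold change was 0.76 ± 0.32 SE (adjusted p = 0.163), or 0.22 in KO 2 and 1.31 in KO 3 against the WT mean. Without KO 2, limma called it at an adjusted p of 0.0166. The values of Ccnd2 relative to the mean of WT on the log2 scale were 0.28, 0.02 and -0.30 in WT. Across libraries the order of Ccnd2 was that of the median HSC marker given above, with WT 3 the lowest and KO 3 the highest in both. By the share of reads of the same markers, KO 2 (0.0674%) lay under WT 2 (0.0849%), whereas Ccnd2 was higher in KO 2. The part of the markers in Ccnd2 was not tested.

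Ccnd3 encodes cyclin D3 and lies at chr17:47505051-47599691 on the plus strand. Its normalized read counts were 12902, 16025 and 15761 in WT and 16520 and 16082 in KO. Both KO values were above all WT values, KO 3 by a margin smaller than the gap between any pair of WT libraries. Under TMM scaling KO 3 no longer exceeded WT 2, which left 3 members above all WT values, beside 23.4% of all genes under that scaling. The log2 fold change was 0.14 (95% interval -0.27 to 0.54, limma adjusted p = 0.636), and it was -0.36 with the length and GC trend removed and 0.04 without WT 1.

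Rb1, the pocket protein that CDK4, CDK6 and CDK2 inactivate, lies at chr14:73183673-73325822 on the minus strand. Its normalized read count was 1491, 1375 and 1934 in WT and 881 and 333 in KO. Both KO libraries lay below every WT library, and KO 3 was the lower of them. The mean was 1600 ± 295 (SD, n = 3) in WT and 607 ± 388 (SD, n = 2) in KO, which left 37.9% of the WT level. By limma the log2 fold change was -1.55 (SE 0.38, 95% interval -2.41 to -0.68), with an unadjusted limma p of 0.00312 and an adjusted p of 0.0818. DESeq2 called it at -1.40 (SE 0.39, adjusted p = 0.00679). Without KO 2, limma called it at -2.25 (adjusted p = 0.00773), and without KO 3 the value was -0.84.

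Rb1 has the lowest GC content of the members, 41.2%, and removal of the length and GC trend brought its log2 fold change to -0.93 (SE 0.30, limma adjusted p = 0.204). The KO 3 value rested on 219 reads, with a 95% Poisson interval of 191 to 250. On the opposite strand, Rcbtb2 shares 8.11% of the Rb1 exon bases and Lpar6 6.78%. Their log2 fold changes were 0.24 and -0.66.

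**Figure D2:**
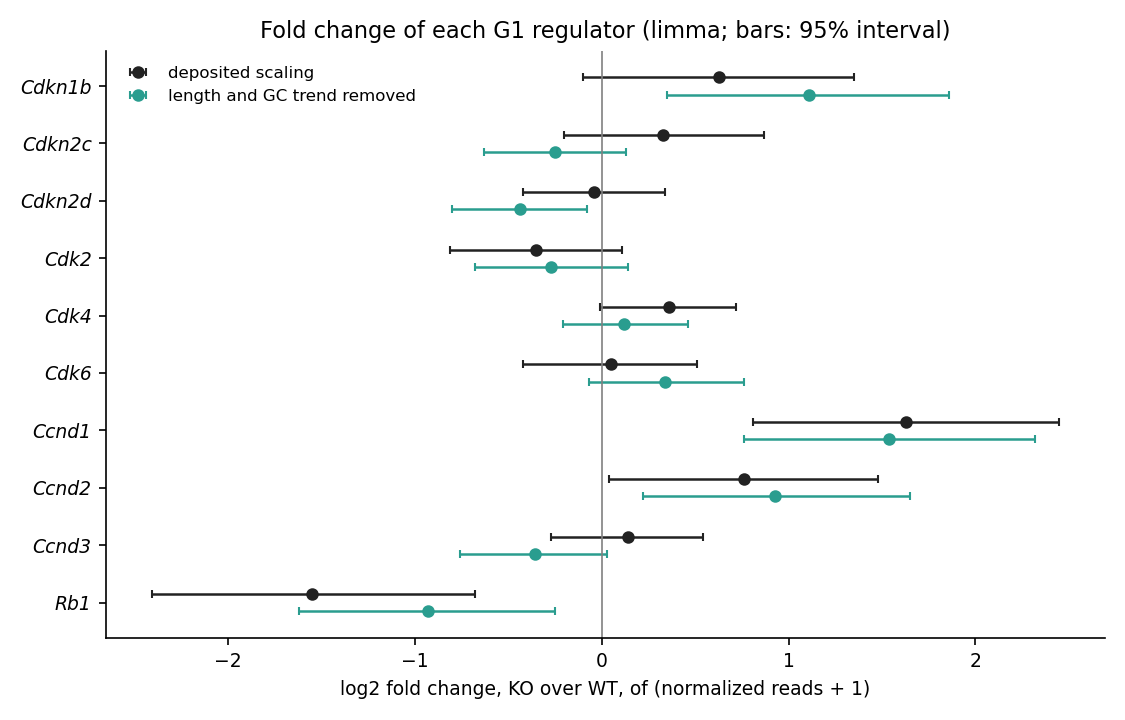
Log2 fold change of KO over WT (horizontal axis, limma on normalized reads + 1) for each G1 regulator, with 95% intervals as bars, on the deposited scaling (black) and after removal of a trend on transcript length and GC content (green). Under both, the interval lies above 0 for Ccnd1 and Ccnd2 and below 0 for Rb1, and Cdkn2c and Ccnd3 change sign.

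The KO libraries differed from each other most in the 3 members with the largest fold changes. KO 3 minus KO 2 was -1.40 for Rb1, 1.09 for Ccnd2 and 0.91 for Ccnd1 on the log2 scale. In each of these, KO 3 was farther from the WT mean than KO 2. For Cdk4 and Ccnd3 the same difference was -0.10 and -0.04. Over the members its median size was 0.40, beside 0.47 over all genes tested, and the median WT SD was 0.20, beside 0.25.

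To compare levels between genes, each normalized read count was divided by the length of the longest GENCODE M21 transcript in kb. In WT the level per kb was highest for Cdk4, at 4684 ± 201 (SD, n = 3), and next for Ccnd3, at 3861 ± 449. Cdkn2d followed at 1643, Cdk2 at 1225 and Cdkn2c at 643. Ccnd2 stood at 411, Rb1 at 344, Cdk6 at 152, Cdkn1b at 45.2 and Ccnd1 at 33.3. Within the 3 kinases, the 3 D-type cyclins and the 3 inhibitors of this set, the highest per kb were Cdk4, Ccnd3 and Cdkn2d. WT ranges of neighbours in this order overlapped for Ccnd2 with Rb1 and for Cdkn1b with Ccnd1.

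In KO, the means of 2 neighbouring pairs changed places. Cdk6 stood at 156 and Rb1 at 130, and Ccnd1 at 109 and Cdkn1b at 69.1. The KO values of Cdk6 (144 and 168) and Rb1 (189 and 71.4) overlapped, as did those of Ccnd1 (75.3 and 142) and Cdkn1b (62.1 and 76.1). By coding length, Ccnd3 came before Cdk4 and Cdk6 before Rb1 in WT, and the other places were as before.

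**Figure D3:**
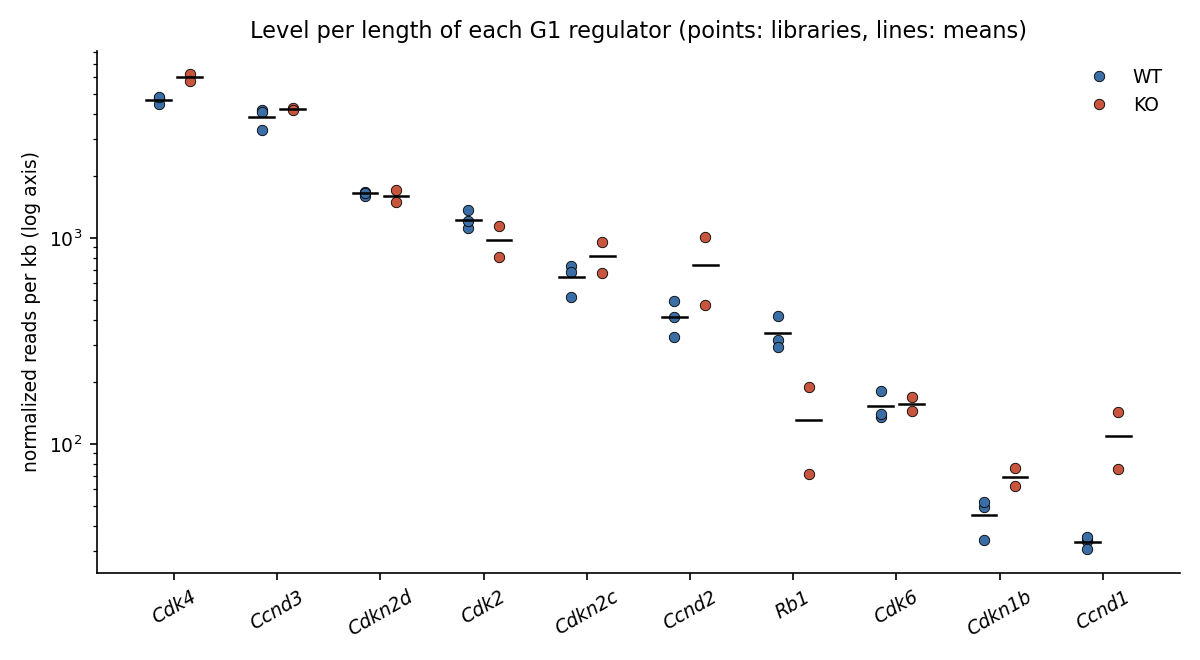
Level per length of each G1 regulator (vertical log axis, normalized reads per kb of the longest transcript), ordered by the WT mean; points are the 3 WT and 2 KO libraries and lines the group means. Cdk4 and Ccnd3 stand at the top, and Ccnd1 is the lowest in WT at 33.3.

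Shares within a set do not depend on how a library is scaled. Of the summed level per kb of the D-type cyclins, Ccnd1 made up 0.874%, 0.672% and 0.793% in WT and 1.56% and 2.67% in KO. Both KO shares were higher than all WT shares, with a two-sided exact permutation p of 0.2, the smallest that 3 libraries against 2 can give. Ccnd2 made up 12.7%, 8.94% and 7.41% in WT and 9.76% and 18.9% in KO (exact permutation p = 0.4). Ccnd3 made up 86.4%, 90.4% and 91.8% in WT and 88.7% and 78.4% in KO (exact permutation p = 0.4). Cyclin D3 was therefore the main D-type transcript in every library, and KO 3 had the lowest share of it. By coding length Ccnd2 made up 11.7% to 19.5% in WT and 15.2% and 27.9% in KO. The summed D-type level per kb was 3871, 4595 and 4450 in WT and 4828 and 5314 in KO.

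Cdk6 made up 2.74%, 3.91% and 2.81% of the summed level of Cdk4 and Cdk6 in WT and 2.26% and 2.82% in KO (exact permutation p = 0.6). The share depended on the length used, and by coding length it was 12.8%, 17.5% and 13.1% in WT and 10.8% and 13.1% in KO (exact permutation p = 0.6). Cdk4 had the larger share in all 5 libraries either way. Of the 3 inhibitors, Cdkn1b made up 2.21%, 2.18% and 1.44% in WT and 2.55% and 3.01% in KO. Both KO shares were above all WT shares, again at the smallest exact permutation p of 0.2. By coding length the Cdkn1b share was 3.15% to 4.95% in WT and 5.54% and 6.15% in KO. With 3 libraries against 2, none of these 5 comparisons can reach 0.05, raw or adjusted.

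**Figure D4:**
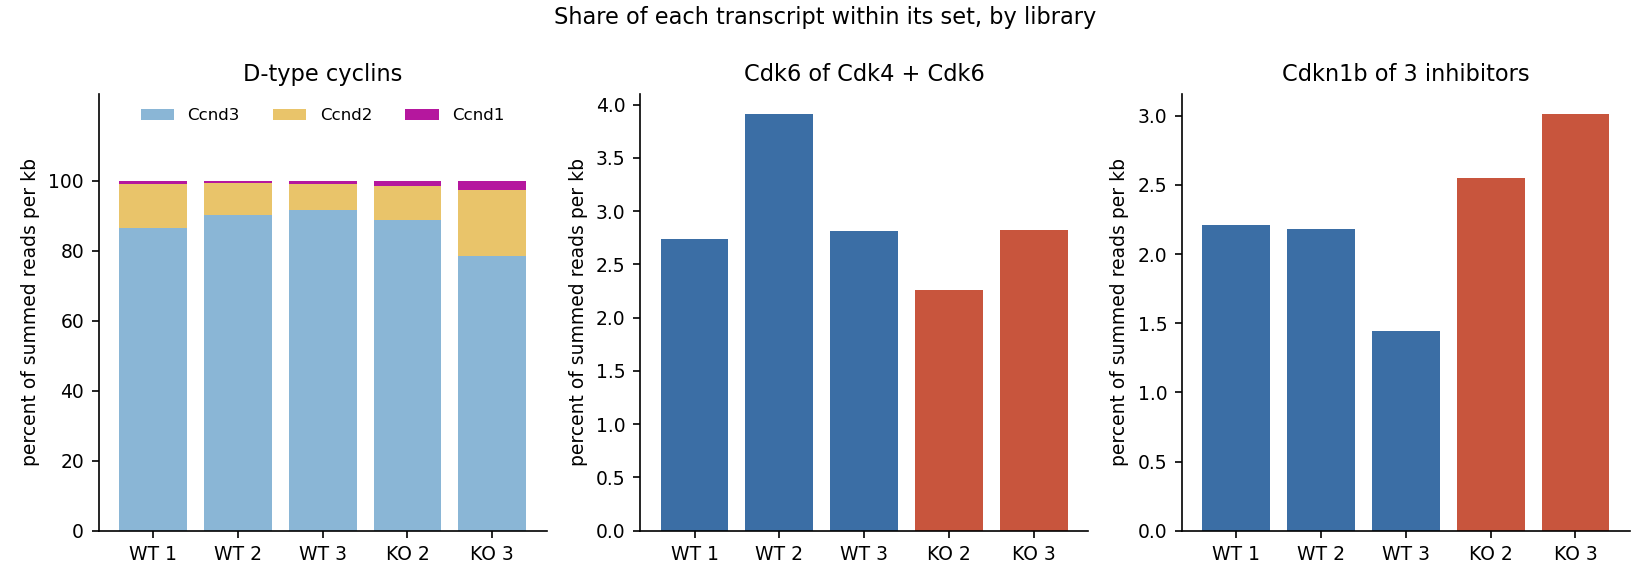
Share of each transcript in the summed normalized reads per kb of its set (vertical axes, percent, from 0) for each of the 5 libraries: the D-type cyclins stacked, Cdk6 within Cdk4 and Cdk6, and Cdkn1b within the 3 inhibitors. Ccnd3 takes 78.4% to 91.8% of the D-type level, and Ccnd1 reaches 1.56% and 2.67% in KO.

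The genes around the members were read by list, and neither limma nor edgeR called a gene in any list at an adjusted p under 0.05. At an unadjusted p under 0.05, the shares over all genes to read the counts against were 13.3% higher and 14.5% lower, and 8.12% and 9.19% after removal of the trend. DESeq2 counts are to be read against the 18.7% of all genes that it called in either direction. Of the 13661 genes that limma tested, DESeq2 called 1120 higher and 1151 lower. Cdkn2a, Cdkn2b, Rbl1, Tfdp2, Cks1b, Cul1, Mnat1, Foxo1, Rbbp4, Ccna2, Cdc6, Ccnb1, Mki67 and Top2a were named after their values were seen. Among the other CDK inhibitors, 3 of 5 were tested. Cdkn1a, which encodes the CIP/KIP inhibitor p21, gave normalized counts of 67.4, 155.4 and 68.6 in WT and of 387.5 and 157.9 in KO, with KO 3 close to WT 2 (limma log2 fold change 1.46 ± 0.53 SE, adjusted p = 0.128). Cdkn1c, which encodes p57, stood at 243.9, 211.8 and 69.4 in WT and at 194.3 and 616.6 in KO. Its groups overlapped, and KO 3 was the highest library (limma log2 fold change 1.17 ± 0.64 SE, adjusted p = 0.262). After removal of the trend Cdkn1c was at 0.50 and Cdkn1a at 1.14. Cdkn3, a phosphatase that acts on CDKs, had a log2 fold change of -0.53. Cdkn2a and Cdkn2b were under the filter and listed at 0 in all WT libraries. In KO 2 and KO 3, Cdkn2a stood at 6.17 and 10.6 and Cdkn2b at 14.4 and 1.52 normalized reads.

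The list of E-type cyclins, other pocket proteins and E2F and DP factors had 14 genes tested. At an unadjusted p under 0.05, 1 was higher (E2f1) and 3 were lower (Ccne2, Rbl1 and Tfdp2), and DESeq2 called the same 3 lower. The median log2 fold change was -0.16, and the median difference from WT was 0.10 in KO 2 and -0.25 in KO 3. Ccne2, the cyclin E2 partner of CDK2, stood at 1310, 854 and 1481 in WT and at 450 and 204 in KO. Both KO values were below all WT values (limma log2 fold change -1.96 ± 0.37 SE, adjusted p = 0.0815, DESeq2 adjusted p = 0.000156). With the trend removed, Ccne2 was at -0.98. The other genes that DESeq2 called were Rbl1, the pocket protein p107, at -0.98, and Tfdp2, an E2F partner, at -0.68 by DESeq2. E2f1 had the highest log2 fold change of this list, 0.44 (limma adjusted p = 0.163), but it was -0.16 after removal of the trend, and the list then had 0 higher and 2 lower, Ccne2 and Rbl1.

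Of the remaining G1 lists, all but the FoxO genes had log2 fold changes on both sides of 0. Of 5 genes of CDK activation, DESeq2 called Cdc37 higher, a chaperone of CDK4 (limma log2 fold change 0.62, limma adjusted p = 0.0941), and the lowest was Ccnh, a cyclin of the CDK-activating kinase, at -0.28. The sign of Ccnh turned with the length and GC trend removed, to 0.54. In that setting 3 of the 5, Cdc37, Ccnh and Mnat1, were higher at an unadjusted p under 0.05, beside 8.12% of all genes. Of 11 genes of p27 and cyclin turnover, DESeq2 called 2 higher and 1 lower. The ends of that list were Fbxo31, a ubiquitin ligase subunit known to act on cyclin D1, at 0.85, and Skp1a, a core ligase subunit, at -0.84. DESeq2 called Fbxo31, and its other calls in the list were Cks1b, the cofactor for p27 breakdown, at 0.43, and Cul1, a ligase scaffold, at -0.58, and these 3 genes were also those with an unadjusted limma p under 0.05. After removal of the trend Fbxo31 was at 0.18 and Cul1 at -0.17, neither with such a p, and Cks1b was at 0.53. The 5 genes of the MuvB core, which pairs with pocket proteins in quiescent cells, ran from Lin37 at 0.54 to Lin54 at -0.78, with Lin54 called by DESeq2. These and Rbbp4 had an unadjusted limma p under 0.05, and none of the 5 did after removal of the trend, where Lin37 was at 0.11 and Lin54 at -0.21. The 3 FoxO genes, whose products are known to raise Cdkn1b, ran from 0.29 for Foxo3 to 0.71 for Foxo4, none with an unadjusted p under 0.05. Their median difference from WT was -0.26 in KO 2 and 0.83 in KO 3, with Foxo1 and Foxo3 above WT in KO 3 alone and Foxo4, at 32.9 and 10.6 normalized reads, in KO 2 alone. Over these 6 lists, 41 of 44 genes were tested, 6 were higher and 6 lower at an unadjusted p under 0.05, and the median log2 fold change was -0.11, or 0.05 in KO 2 and -0.19 in KO 3 against WT. With the length and GC trend removed 4 were higher and 2 lower, and the median of these lists was 0.10. The median of CDK activation went from -0.13 to 0.54 and that of the MuvB core from -0.57 to -0.04. Before that step, the median difference from WT in KO 2 and KO 3 was -0.01 and -0.31 for CDK activation. It was -0.18 and -0.96 for the MuvB core.

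Among 12 E2F targets of the G1/S transition, 1 was higher (Cdt1) and 3 were lower (Rrm2, Ccna2 and Cdc6) at an unadjusted p under 0.05, of which DESeq2 called Cdt1 and Ccna2. Cdt1, a replication licensing factor, was the highest at 0.67 and Rrm2, a subunit of ribonucleotide reductase, the lowest at -0.92. The median log2 fold change was -0.24, or -0.07 with the trend removed, where Cdt1 was at 0.11 and 0 were higher and 3 lower. On the deposited scaling, the median difference from WT was -0.09 in KO 2 and -0.31 in KO 3. Among 11 mitotic genes none was higher and 4 were lower (Bub1, Ccnb1, Mki67 and Top2a) at an unadjusted p under 0.05, and DESeq2 called these except Ccnb1. The ends were Plk1 at 0.29 and Bub1 at -1.34, which were -0.14 and -0.71 with the trend removed. The median of these genes was -0.35, or -0.30 with the trend removed. Their median difference from WT was -0.03 in KO 2 and -0.77 in KO 3. Mitotic genes took 0.276% to 0.309% of reads in WT, 0.265% in KO 2 and 0.184% in KO 3. They were lowest in the library where Rb1 was lowest and Ccnd1 and Ccnd2 were highest. KO 3 also had the fewest reads, the lowest shares of myeloid and erythroid markers and the highest of HSC and megakaryocyte markers. The part of these in the mitotic genes was not tested.

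**Figure D5:**
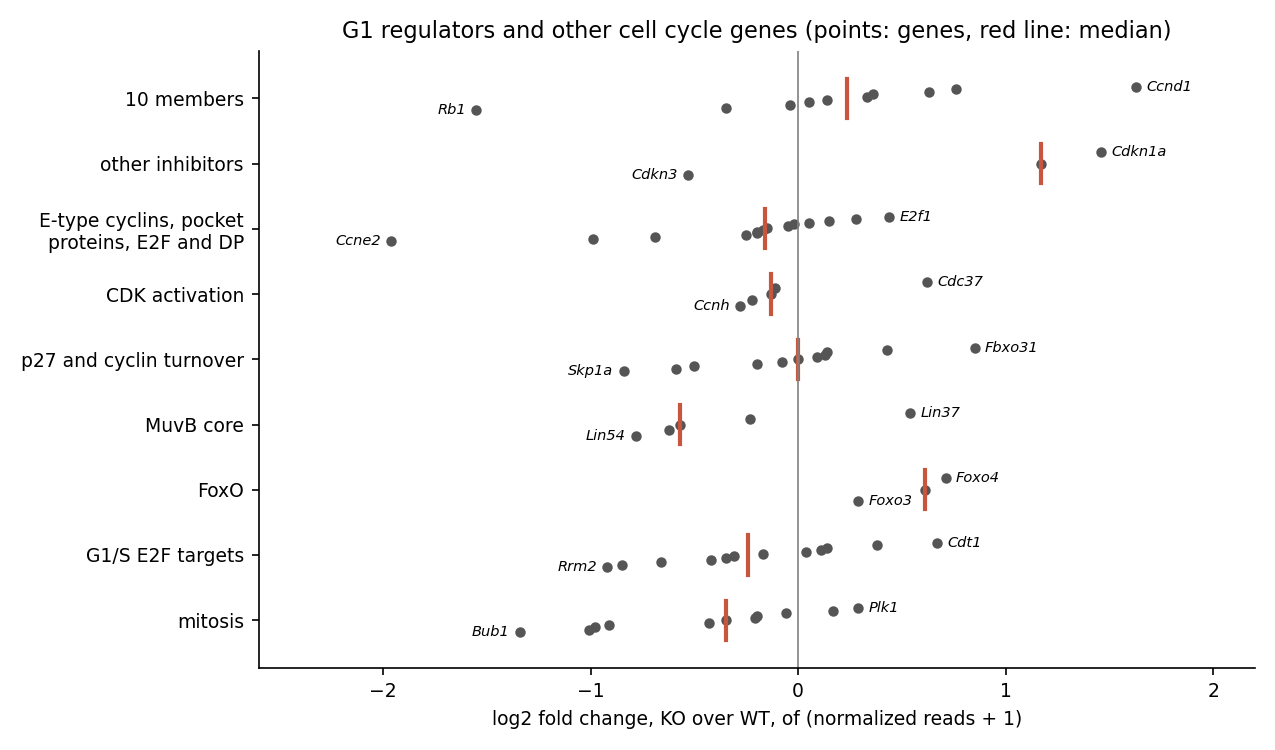
Log2 fold change of KO over WT (horizontal axis, limma on normalized reads + 1) for the 10 members and for 8 lists of other cell cycle genes; each point is a gene, small vertical offsets only separate points, and red lines are list medians. The members run from Rb1 at -1.55 to Ccnd1 at 1.63, and the lowest gene of all lists is Ccne2 at -1.96.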

How the data were processed

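RNA-seq was carried out on HSCs of 3 WT and 2 KO libraries, prepared with the SMART-Seq v4 kit. The authors deposited normalized signal per gene symbol, that is read counts divided by a size factor of each library. The submitters' processing notes name STAR, featureCounts, DESeq2 and mm10. Versions, annotation and strand setting were not given in the sources used here. A second deposited table holds the authors' own comparison (fold changes with raw and adjusted p-values) and was not used.

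All positive values were whole multiples of 1 step per library (100%, tolerance 0.01 reads), which gave back whole reads. The test was limma 3.58.1 (trend, R 4.3.3) on log2(value + 1), two-sided, over the 13661 genes that reached 10 in 2 or more libraries, with Benjamini-Hochberg adjustment and a call at 0.05. This scale understates the change of low genes. edgeR 4.0.16 (quasi-likelihood), DESeq2 1.42.0 and voom were run on the recovered reads. Scripts were tested on simulated data. Shares were compared by exact permutation (scipy 1.17.1). Other alternatives covered the pseudocount (0.5 or 10), the filter, the scaling, array weights, a replicate block, each library left out, and a linear trend on length and GC content (13015 genes). Every pair of libraries differed by more than sampling noise (lowest chi-square over degrees of freedom 32.6). Depth differed with genotype, and, without molecular identifiers, the Poisson intervals cover counting error only. The limma intervals rest on the spread between libraries.

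The replicate numbers were not taken as pairs, since no label ties them to a litter, batch or day. Named genes were all members, Syncrip, Cdkn1a, Cdkn1c, and the highest and lowest log2 fold change of each other list, and the report says which others were named after their values were seen. Members and lists were chosen with earlier results of these data known.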

Additional observations from a re-analysis of the deposited data

How the results depend on the processing

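No member was called by limma, edgeR or voom with all 5 libraries, whereas DESeq2 called 2, and leaving out 1 library gave 0 to 3, the 3 being those without KO 2. For all genes, limma called 1, against 2 with a pseudocount of 10, 2 by edgeR, 2279 by DESeq2, 6 with the replicate block, and 0 with all genes above 0, array weights, voom or the length and GC trend removed. Leaving out 1 library gave 0 to 3024, the highest without KO 2, where a lone KO library was assumed to vary like WT. The cause of these differences was not tested. Syncrip was not past the threshold with all genes above 0 (-2.43, adjusted p = 0.0503), array weights (-2.42), voom (-2.46) or the trend removed (-1.53), and leaving out 1 library gave -2.55 to -2.32, with the call lost without WT 1, WT 2 or WT 3.

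The median log2 fold change of the members was 0.11 with the replicate block, -0.06 with the trend removed, and 0.11 to 0.28 with 1 library left out, where it was 0.11 without WT 1 and 0.12 without KO 3. The members below all WT values were 3 with the trend removed, beside 18.5% of all genes, and 1 to 3 with 1 library left out, 2 without WT 1 and 3 without KO 2, where the share of all genes also went up, to 29.4% and 38.3%. Cdkn2d was at 0.00 by upper-quartile scaling, which moved the median of all genes from 0.02 to 0.06. Signs turned for Cdk6 (-0.03 with the block), Cdkn2c (-0.25, trend removed) and Ccnd3 (-0.36, trend removed). With 1 library left out, Cdk6 ran from -0.07 to 0.18 and Cdkn2d from -0.13 to 0.05, while the trend removal gave their widest values, 0.34 and -0.44. With the trend removed, the members under an unadjusted p of 0.05 were 5, against 3.

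Deviations from the group means correlated at -0.059 between WT 2 and KO 2 and at -0.18 between WT 3 and KO 3. The 2 KO libraries mirror each other around their own mean, and WT 1 has no KO partner. These values therefore cannot decide whether libraries of the same number belong together. With the replicate block, whose fold changes are those of the fit without WT 1, limma called none of the members. With 3 libraries against 2, and 12539599 reads in KO 3, small differences were not detectable, and an adjusted p above 0.05 does not show that a gene was unchanged.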
